A study of Mus musculus with 9 samples.

Results

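The collagen genes of the mouse were taken by symbol, as every gene named Col, a number, a and a number. Of 21899 genes in the deposited table, 44 met this rule. It reads names alone, but it and the classes were chosen with earlier results of these data known. They were divided by textbook class into 11 fibrillar collagens, 8 basement membrane collagens (6 type IV chains and the multiplexins Col15a1 and Col18a1) and 25 others. Of the 44, 43 passed the filter on low counts and were tested. Col10a1, a short-chain collagen of growth cartilage, did not pass, with 0 to 19 counts per library. It overlaps Nt5dc1, a gene on the other strand, by 7105 bases, and the strand setting of the counting is not given.

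Tissue of the PVT, the paraventricular nucleus of the thalamus, which lies along the midline below the third ventricle's roof, was taken fresh from wild-type mice and is labelled as brain. The series concerns inflammation of the nervous system, and the 3 groups were 7 days after lipopolysaccharide (LPS 7d), 1 day after LPS (LPS 1d) and 1 day after phosphate-buffered saline (PBS 1d), each injected into the peritoneal cavity, with 3 libraries each. LPS is a bacterial cell wall component used to provoke systemic inflammation. A PBS group at day 7 was not analysed here, so that in LPS 7d against PBS 1d day and treatment cannot be told apart. The sources used here give neither dose, age and sex nor whether a library came from 1 animal or several, so p-values measure the spread between these libraries, which may be technical.

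Collagens are triple helices of 3 chains that are hydroxylated and assembled in the endoplasmic reticulum. Fibrillar chains are trimmed outside the cell and crosslinked into fibrils, while type IV chains join into the sheet of the basement membrane and type VI chains into beaded filaments. In the brain, the collagen-rich places are the basement membranes of vessels, made by endothelial cells and pericytes, and the fibroblasts of the meninges, the perivascular space and the choroid plexus stroma, while some transmembrane collagens are made by neurons.

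The members past a fold of 1.5 in LPS 1d against PBS 1d were the type IV chains Col4a1 and Col4a2, and their start regions are shown because both genes start from one shared stretch. In the deposited GRCm39 coordinates Col4a1 spans positions 11248423 to 11362826 of chromosome 8 on the minus strand and Col4a2 positions 11362805 to 11499287 on the plus strand, so their 5′ ends overlap by 22 bases. The RefSeq windows below, from 250 bases before to 50 after an annotated start, are in GRCm38.p6 at chr8:11312777-11313076 (minus strand) for Col4a1 and chr8:11312555-11312854 (plus strand) for Col4a2. Capitals mark CCAAT boxes (CCAAT or ATTGG) and GC boxes (GGGCGG or CCGCCC). The last 78 bases of the Col4a1 window are the reverse complement of the last 78 of the Col4a2 window.
Col4a1: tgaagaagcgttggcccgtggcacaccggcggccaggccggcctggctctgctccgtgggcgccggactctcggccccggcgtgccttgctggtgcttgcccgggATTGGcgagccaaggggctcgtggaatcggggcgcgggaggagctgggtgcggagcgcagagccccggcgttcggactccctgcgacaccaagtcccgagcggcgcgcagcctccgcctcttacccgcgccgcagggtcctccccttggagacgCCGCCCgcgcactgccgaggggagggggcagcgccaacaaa
Col4a2: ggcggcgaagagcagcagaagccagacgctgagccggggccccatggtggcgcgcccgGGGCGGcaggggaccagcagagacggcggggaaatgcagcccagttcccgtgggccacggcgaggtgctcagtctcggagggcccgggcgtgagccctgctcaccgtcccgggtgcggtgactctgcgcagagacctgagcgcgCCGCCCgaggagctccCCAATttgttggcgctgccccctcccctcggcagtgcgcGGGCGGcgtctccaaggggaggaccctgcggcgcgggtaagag
The Col4a1 window held 1 CCAAT box and 1 GC box, the Col4a2 window 1 CCAAT box and 3 GC boxes, and both windows lacked a TATAAA box.

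A fibrillar promoter is shown beside them, that of Col1a2, the chain that pairs with Col1a1 in type I collagen, at chr6:4505368-4505667 (plus strand, GRCm38.p6), with the same capitals.
Col1a2: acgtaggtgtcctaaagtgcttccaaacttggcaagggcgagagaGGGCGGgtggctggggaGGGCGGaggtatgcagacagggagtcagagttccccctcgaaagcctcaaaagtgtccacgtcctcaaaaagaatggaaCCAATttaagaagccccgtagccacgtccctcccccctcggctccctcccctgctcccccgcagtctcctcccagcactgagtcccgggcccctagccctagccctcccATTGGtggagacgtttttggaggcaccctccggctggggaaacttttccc
This window held 2 CCAAT boxes and 2 GC boxes. Of the 44 collagen genes, 35 had a RefSeq window in the same table, 38 windows in all, and motifs were searched on both strands, with TATAAA as a further one. GC boxes stood in 23 of the 38 (60.5%), against 35.7% of all 32851 windows, CCAAT boxes in 13 (34.2%, against 37.4%) and TATAAA in 5 (13.2%, against 13.6%). No test was made of these shares, and letters absent from a window say nothing about the factor.

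Libraries held 13211422 to 17210526 counts, of which 9871 to 14112 fell on collagen genes. All 8 tested markers of the PVT and thalamus were detected in every library, and their summed level was 535 to 559 CPM (counts scaled to a common library size) in LPS 7d, 465 to 479 CPM in LPS 1d and 669 to 687 CPM in PBS 1d. Markers of other brain regions also differed between the groups. Cerebellum and hindbrain markers summed to 1403 to 1417 CPM in LPS 7d, 246 to 255 CPM in LPS 1d and 304 to 318 CPM in PBS 1d, with Hoxa5 and Hoxb5 at 0 in every LPS 1d and PBS 1d library, and striatum markers to 474 to 485 CPM in LPS 7d, 751 to 766 CPM in LPS 1d and 1127 to 1170.5 CPM in PBS 1d. The 4 Y-linked genes summed to 90.5 to 102 CPM in LPS 7d, 81.5 to 85.2 CPM in LPS 1d and 0 to 0.0588 CPM in PBS 1d, so that what differs between libraries with and without Y-linked counts cannot be told apart from LPS. Oligodendrocyte markers summed to 9292 to 9919 CPM in LPS 7d, 6924 to 6954 CPM in LPS 1d and 6933 to 7295 CPM in PBS 1d, and astrocyte markers to 1654 to 1673 CPM in LPS 7d, 1508 to 1542 CPM in LPS 1d and 1212 to 1249 CPM in PBS 1d. Of the 6 astrocyte markers, 3 rose and 3 fell in LPS 1d against PBS 1d (median log2 fold change -0.01), where 24.9% of all genes rose and 24.2% fell. In LPS 7d against PBS 1d 5 rose and 0 fell, where 16.8% of all genes rose and 18.9% fell. The part of these differences in the collagen results was not tested.

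Levels between genes were compared per length, in FPKM (the deposited values, counts scaled by gene length and library total). In PBS 1d the collagen with the highest FPKM was Col6a1, the alpha1 chain of type VI, at 13.3 ± 0.791 FPKM (SD, n = 3). Col4a2 followed at 12.3 ± 0.269 FPKM, then Col25a1, a transmembrane collagen of neurons, at 10.3 ± 0.184 FPKM, and Col4a1 at 8.81 ± 0.219 FPKM. The libraries of these 4 genes did not overlap with those of the next gene down, nor did those of Col9a3 (4.91 FPKM), Col11a2 (4.44 FPKM) and Col23a1 (3.46 FPKM), the next in order. From the eighth place down, Col6a2 at 2.93 FPKM, Col9a2 at 2.89 FPKM, Col16a1 at 2.61 FPKM, Col19a1 at 2.20 FPKM and Col15a1 at 1.99 FPKM, each overlapped with its next lower neighbour.

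Summed over all 44 genes, collagen FPKM was 85.8 ± 1.12 in LPS 7d, 117 ± 0.864 in LPS 1d and 92.5 ± 2.24 in PBS 1d. The basement membrane sum was 29.3 ± 0.801 FPKM in LPS 7d, 45.04 ± 0.293 FPKM in LPS 1d and 26.4 ± 0.665 FPKM in PBS 1d. Col4a1 and Col4a2 alone made up 24.4 ± 0.398% of collagen FPKM in LPS 7d, 34.1 ± 0.692% in LPS 1d and 22.8 ± 0.324% in PBS 1d. The fibrillar sum was 16.1 ± 0.630 FPKM in LPS 7d, above 14.3 ± 0.0924 FPKM in LPS 1d and 13.8 ± 0.205 FPKM in PBS 1d. The sum of the other collagens was 40.3 ± 0.243 FPKM in LPS 7d, below 57.3 ± 1.19 FPKM in LPS 1d and 52.3 ± 1.39 FPKM in PBS 1d. The make-up of collagen transcript thus differed between the groups, with the fibrillar share at 18.8% in LPS 7d, 12.2% in LPS 1d and 14.9% in PBS 1d.

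**Figure D1:**
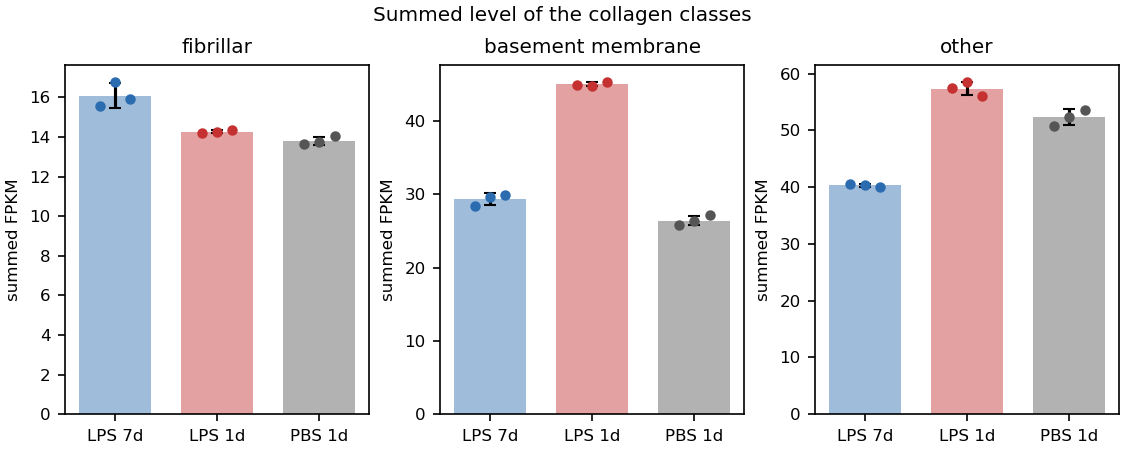
Summed FPKM of each collagen class in the 9 libraries, by group, LPS 7d at the left, LPS 1d in the middle and PBS 1d at the right, with points for libraries and bars for means ± SD. Basement membrane collagens stood at 45.04 FPKM in LPS 1d, above LPS 7d and PBS 1d, and the other collagens were lowest in LPS 7d, at 40.3 FPKM.

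In LPS 1d against PBS 1d, the share of collagen genes that rose was near that of all genes, while a smaller share fell. By edgeR's quasi-likelihood test with Benjamini-Hochberg adjustment over all 14837 genes tested, 12 of the 43 tested collagens rose and 4 fell, 27.9% and 9.30%, where 24.9% of all genes rose and 24.2% fell (49.1% in either direction). Col4a1 rose 2.28-fold, Col4a2 1.64-fold and the interstitial fibril chains Col3a1, Col1a2 and Col1a1 by 1.82, 1.76 and 1.63-fold, while Col26a1 fell to 0.521 of its PBS 1d level. By class, 3 fibrillar members rose and 2 fell, 3 basement membrane members rose and 1 fell, and 6 others rose and 1 fell. The median log2 fold change was 0.20 for fibrillar, 0.15 for basement membrane and 0.17 for other collagens, against -0.01 for all genes. Tested against a fold of 1.5, Col4a1 and Col4a2 were higher and 0 collagens lower, where 3.44% of all genes were higher and 0.917% lower (4.36% together). The libraries did not overlap for 17 higher and 6 lower collagens, where this held for 27.4% and 27.1% of all genes (54.5% together). In bulk tissue a change in the number of cells of a type and a change in RNA per cell cannot be told apart.

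In LPS 7d against PBS 1d the medians of the classes had different signs. Of 43, 10 collagens rose and 13 fell, 23.3% and 30.2%, where 16.8% of all genes rose and 18.9% fell (35.6% in either direction). Among all genes the split was 2489 higher and 2798 lower, and library totals without further scaling gave 3183 higher and 2326 lower, with 11 collagens higher and 12 lower. Fibrillar collagens had 6 rises and 2 falls, with a median log2 fold change of 0.31, basement membrane collagens 2 rises and 1 fall (median -0.04), and the others 2 rises and 10 falls (median -0.21), while the median of all genes was 0.00. Without PBS 1d replicate 3 the median of the others was -0.094. Among the others all 6 type VI genes fell, while the 9 fibril-associated collagens had 0 rises and 0 falls (median -0.03). The members past a fold of 1.5 by a test against that fold were Col18a1, Col27a1 and Col17a1, which were higher, and Col6a1, which was lower. By that stricter test 2.31% of all genes were higher and 1.33% lower (3.63% together). Groups did not overlap for 11 higher and 13 lower collagens, against 21.5% and 22.7% of all genes (44.2% together).

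In LPS 7d against LPS 1d, 8 collagens rose and 16 fell, 18.6% and 37.2%, where 27.5% of all genes rose and 29.1% fell (56.6% in either direction). Among all genes the split was 4076 higher and 4323 lower, and library totals without further scaling turned it to 4867 higher and 3680 lower, with 10 collagens higher and 15 lower. Type IV and type VI chains made up 8 of the 16 falls, with 3 and 5 members. Fibrillar collagens had 3 rises and 4 falls (median log2 fold change 0.00), basement membrane collagens 2 rises and 3 falls (median 0.12), and the others 3 rises and 9 falls (median -0.30), with a median of 0.00 over all genes. The 6 type IV chains alone had a median of -0.36, opposite in sign to their class. Without LPS 7d replicate 1 the median of the others was -0.19, and without LPS 1d replicate 1 or 3 or LPS 7d replicate 3 that of the basement membrane collagens was 0.062 to 0.070. Fibrillar medians reached 0.10 without LPS 1d replicate 1, 0.077 without LPS 1d replicate 2 and 0.071 without LPS 7d replicate 1. Past a fold of 1.5 by the stricter test were Col18a1 and Col27a1, which were higher, and Col4a1, Col4a2, Col6a1, Col6a3, Col6a4, Col8a1 and Col23a1, which were lower. Of all genes 3.71% were higher and 4.76% lower by it (8.47% together). Libraries were apart for 8 higher and 18 lower collagens, against 29.5% and 31.1% of all genes (60.6% together). The 3 comparisons share their libraries, so they are not independent of each other.

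**Figure D2:**
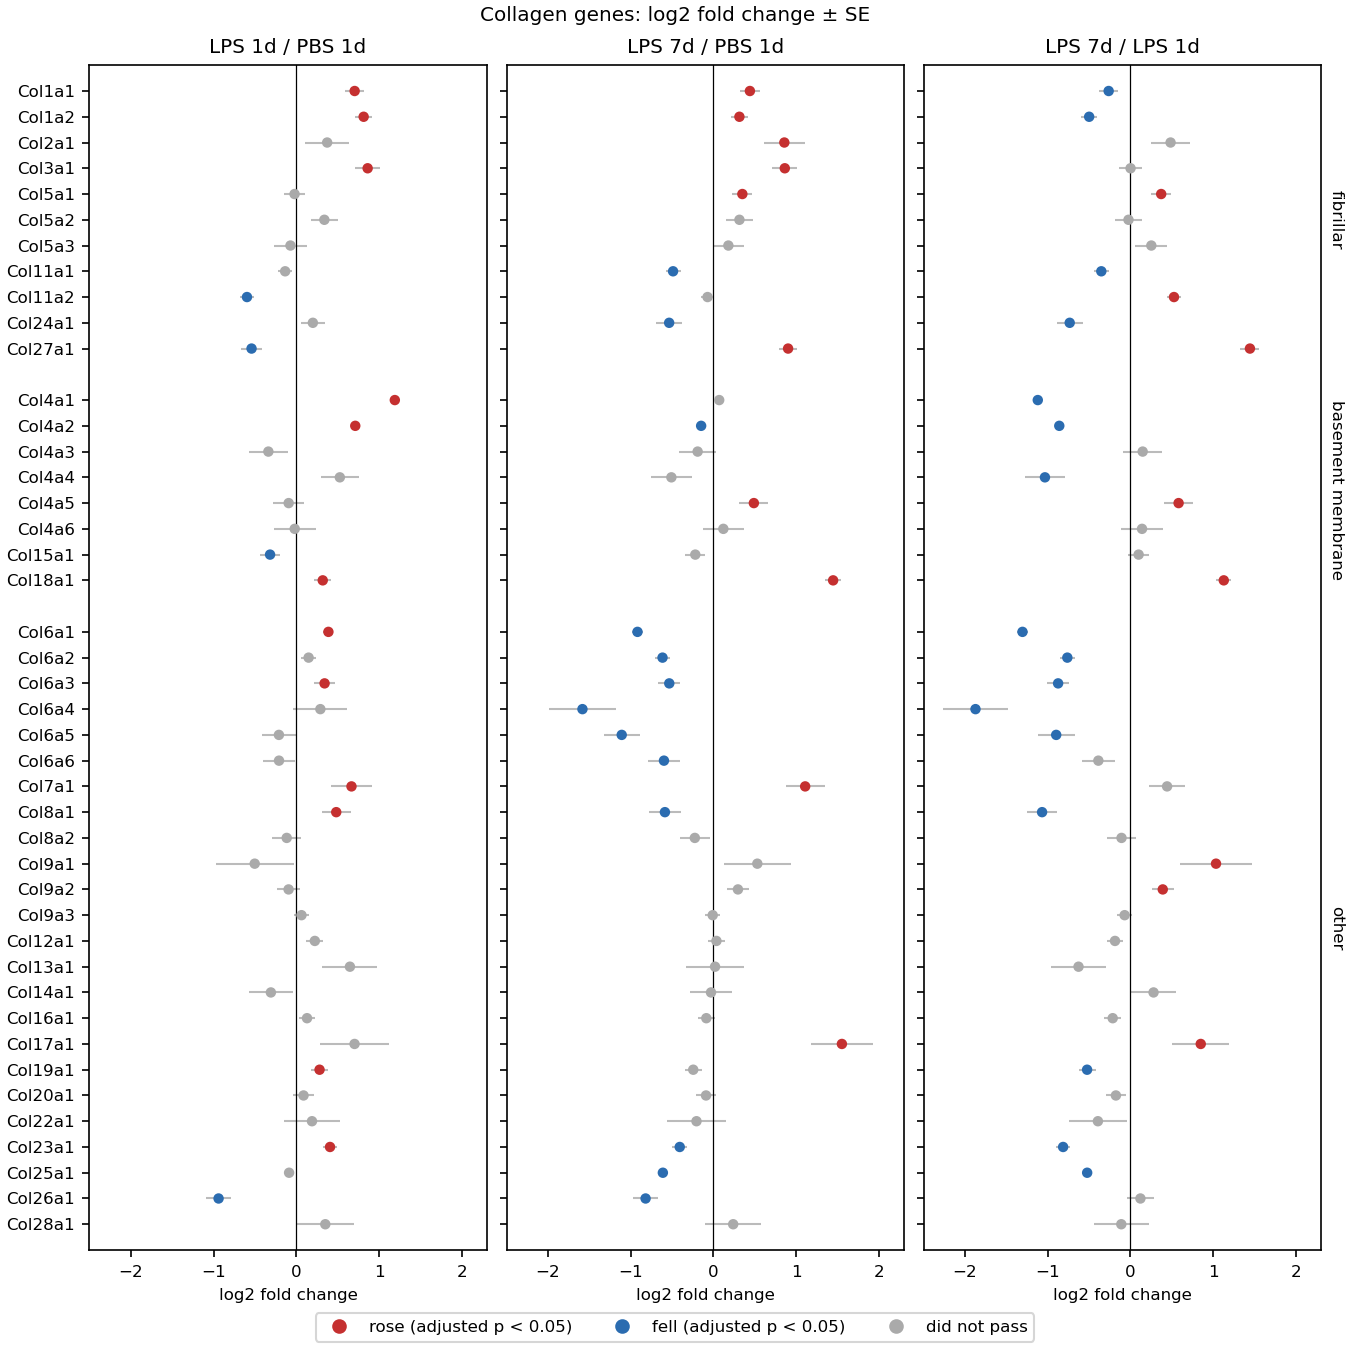
Log2 fold change (points, with bars of 1 SE) of the 43 tested collagen genes in the 3 comparisons, 1 panel each, with genes grouped by class down the page, red where a gene rose, blue where it fell and grey where it did not pass an adjusted p of 0.05. Type VI genes lie left of 0 in LPS 7d against PBS 1d, where 6 of 6 fell, against 18.9% of all genes. Col4a1 and Col4a2 lie at 1.19 and 0.71 in LPS 1d against PBS 1d.

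Type IV collagen is the network former of every basement membrane, and its common form holds the alpha1 and alpha2 chains. Col4a1 had 65.9, 72.6 and 69.6 CPM in LPS 7d, 152, 151 and 149.7 CPM in LPS 1d, and 64.8, 65.9 and 67.5 CPM in PBS 1d. Col4a2 had 73.1, 75.6 and 73.4 CPM in LPS 7d, 133, 131 and 139 CPM in LPS 1d, and 82.7, 80.0 and 83.6 CPM in PBS 1d. Both genes were higher in every LPS 1d library than in any other library. By edgeR, the log2 fold change (here and hereafter ± SE) in LPS 1d against PBS 1d was 1.19 ± 0.05 (adjusted p = 3.3e-26) for Col4a1 and 0.71 ± 0.05 (adjusted p = 1.16e-17) for Col4a2, and both passed the test against a fold of 1.5. Set against LPS 1d, LPS 7d was at -1.12 ± 0.05 (adjusted p = 1.06e-25) for Col4a1 and -0.86 ± 0.05 (adjusted p = 3.4e-21) for Col4a2. Col4a1 did not pass in LPS 7d against PBS 1d (log2 fold change 0.07, 95% interval -0.03 to 0.17, adjusted p = 0.313 by edgeR). Col4a2 was lower there, at -0.15 ± 0.05 (adjusted p = 0.0163), a call lost with library totals as the only scaling and without PBS 1d replicate 3 or LPS 7d replicate 3, with an adjusted p of at most 0.0854.

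The minor type IV chains are expressed in few basement membranes and stood at lower levels. Col4a4 had 1.53, 2.10 and 1.95 CPM in LPS 7d, 4.16, 3.92 and 3.41 CPM in LPS 1d, and 3.11, 2.02 and 2.79 CPM in PBS 1d. Col4a4, a chain of the alpha3-alpha4-alpha5 network, fell in LPS 7d against LPS 1d by 1.03 ± 0.24 (adjusted p = 0.000259) on the log2 scale in edgeR's test, with no overlap of the groups. Col4a5 had 6.01, 6.97 and 7.69 CPM in LPS 7d, 4.86, 4.49 and 4.50 CPM in LPS 1d, and 3.23, 5.70 and 5.93 CPM in PBS 1d. Col4a5, an X-linked chain, was higher in every LPS 7d library than in any other and rose against LPS 1d, by 0.58 ± 0.18 (adjusted p = 0.00462), and against PBS 1d, by 0.49 ± 0.17 (adjusted p = 0.0237). The second call was lost with DESeq2 and without PBS 1d replicate 1, LPS 7d replicate 2 or LPS 7d replicate 3, where the adjusted p reached 0.315. Col4a3 and Col4a6, which lie head to head with Col4a4 and Col4a5 at distances of 72 and 1309 bases between starts, passed in none of the 3 comparisons.

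Col18a1 and Col15a1 are the multiplexins, basement membrane proteoglycans whose C-terminal pieces are endostatin and endostatin-like peptides. Col18a1 had 31.3, 31.4 and 36.6 CPM in LPS 7d, 15.1, 16.1 and 14.2 CPM in LPS 1d, and 12.1, 11.3 and 13.0 CPM in PBS 1d. Its LPS 7d libraries stood above all others, 2.73-fold over PBS 1d and 2.19-fold over LPS 1d. By edgeR the log2 fold change was 1.45 ± 0.09 (adjusted p = 1.04e-18) against PBS 1d and 1.13 ± 0.09 (adjusted p = 2.19e-15) against LPS 1d. In LPS 1d the rise over PBS 1d was 0.32 ± 0.10 (adjusted p = 0.00909), with no overlap, and it was lost without PBS 1d replicate 2 or LPS 1d replicate 2, at an adjusted p of at most 0.0593. Col18a1 lies at positions 76888012 to 77002382 of chromosome 10 and overlaps Slc19a1, a folate carrier gene on the other strand, by 8825 bases. Since the sources used here do not give the strand setting of the counting, their reads may not be separable. Slc19a1 averaged 22.0 CPM in LPS 7d, 22.6 CPM in LPS 1d and 19.7 CPM in PBS 1d, and its log2 fold change in LPS 7d against PBS 1d was 0.16 ± 0.09 (adjusted p = 0.155 by edgeR).

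Col15a1 had 10.3, 9.995 and 12.4 CPM in LPS 7d, 9.71, 10.8 and 9.98 CPM in LPS 1d, and 11.5, 14.5 and 12.1 CPM in PBS 1d. Col15a1 fell in LPS 1d against PBS 1d, by 0.32 ± 0.12 (adjusted p = 0.0264) on the log2 scale in edgeR's test. The call was lost with DESeq2 and without PBS 1d replicate 2, LPS 1d replicate 1 or LPS 1d replicate 3, where the adjusted p reached 0.199. Markers of the vessel wall stood beside these changes. The 10 endothelial markers summed to 320 to 344 CPM in LPS 7d, 322 to 331 CPM in LPS 1d and 272 to 275 CPM in PBS 1d. In LPS 1d against PBS 1d 4 of the 10 rose and 3 fell, where 24.9% of all genes rose and 24.2% fell. In LPS 7d against PBS 1d 6 of the 10 rose and 0 fell, where 16.8% of all genes rose and 18.9% fell. Pericyte and smooth muscle markers summed to 423 to 431 CPM in LPS 7d, 310.1 to 324 CPM in LPS 1d and 297 to 306 CPM in PBS 1d, with Tagln at 0 in 1 library of each group. Of the 10 tested, 4 rose and 1 fell in LPS 1d against PBS 1d, and in LPS 7d against PBS 1d 5 rose and 0 fell, where 16.8% of all genes rose and 18.9% fell. Their part in the collagen differences was not tested.

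Among fibrillar collagens, types I and III form the interstitial fibrils of connective tissue. Col1a1 had 11.8, 15.4 and 11.9 CPM in LPS 7d, 15.03, 17.6 and 14.3 CPM in LPS 1d, and 9.58, 9.56 and 9.68 CPM in PBS 1d. Col1a2 had 19.5, 21.8 and 19.5 CPM in LPS 7d, 32.6, 23.5 and 30.2 CPM in LPS 1d, and 14.4, 17.8 and 16.8 CPM in PBS 1d. Col3a1 had 8.15, 9.87 and 9.05 CPM in LPS 7d, 10.4, 7.85 and 8.95 CPM in LPS 1d, and 3.94, 5.76 and 5.25 CPM in PBS 1d. For each of the 3 genes, every LPS 7d and LPS 1d library stood above every PBS 1d library. The log2 fold change in LPS 1d against PBS 1d was 0.70 ± 0.12 (adjusted p = 2.16e-06) for Col1a1, 0.81 ± 0.10 (adjusted p = 1.66e-09) for Col1a2 and 0.86 ± 0.16 (adjusted p = 7.61e-06) for Col3a1 by edgeR. Against PBS 1d, LPS 7d was at 0.44 ± 0.12 (adjusted p = 0.00266) for Col1a1, 0.31 ± 0.10 (adjusted p = 0.0126) for Col1a2 and 0.86 ± 0.15 (adjusted p = 7.58e-06) for Col3a1. The Col1a1 call of LPS 7d against PBS 1d was lost without LPS 7d replicate 2, at an adjusted p of 0.0694, and the Col1a2 call without PBS 1d replicate 1 or LPS 7d replicate 2, at up to 0.115.

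Set against LPS 1d, LPS 7d had less Col1a2 transcript, a less stable fall of Col1a1 and no detected difference in Col3a1. Col1a2 fell by 0.50 ± 0.10 (adjusted p = 1.58e-05) on the log2 scale in edgeR's test. Col1a1 fell by 0.26 ± 0.11 (adjusted p = 0.0427 by edgeR), with overlapping libraries. That call was not kept by 4 other settings or by 4 of the fits without a library. These 4 fits left out LPS 1d replicate 1 or 2 or LPS 7d replicate 1 or 3. Where the call was lost, the adjusted p was at most 0.277. Col3a1 differed by 0.00, 95% interval -0.27 to 0.28 (adjusted p = 0.995). The 16 markers of fibroblasts and meninges summed to 229 to 237 CPM in LPS 7d, 299 to 316 CPM in LPS 1d and 232 to 237 CPM in PBS 1d, with none at 0. Of the 15 tested, 8 rose and 1 fell in LPS 1d against PBS 1d, where 24.9% of all genes rose and 24.2% fell. A total of 1 rose and 2 fell in LPS 7d against PBS 1d, where 16.8% and 18.9% of all genes did. Against LPS 1d, 1 rose and 8 fell in LPS 7d (median log2 fold change -0.31), where 27.5% and 29.1% of all genes did. Their part in the fibrillar results was not tested.

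**Figure D3:**
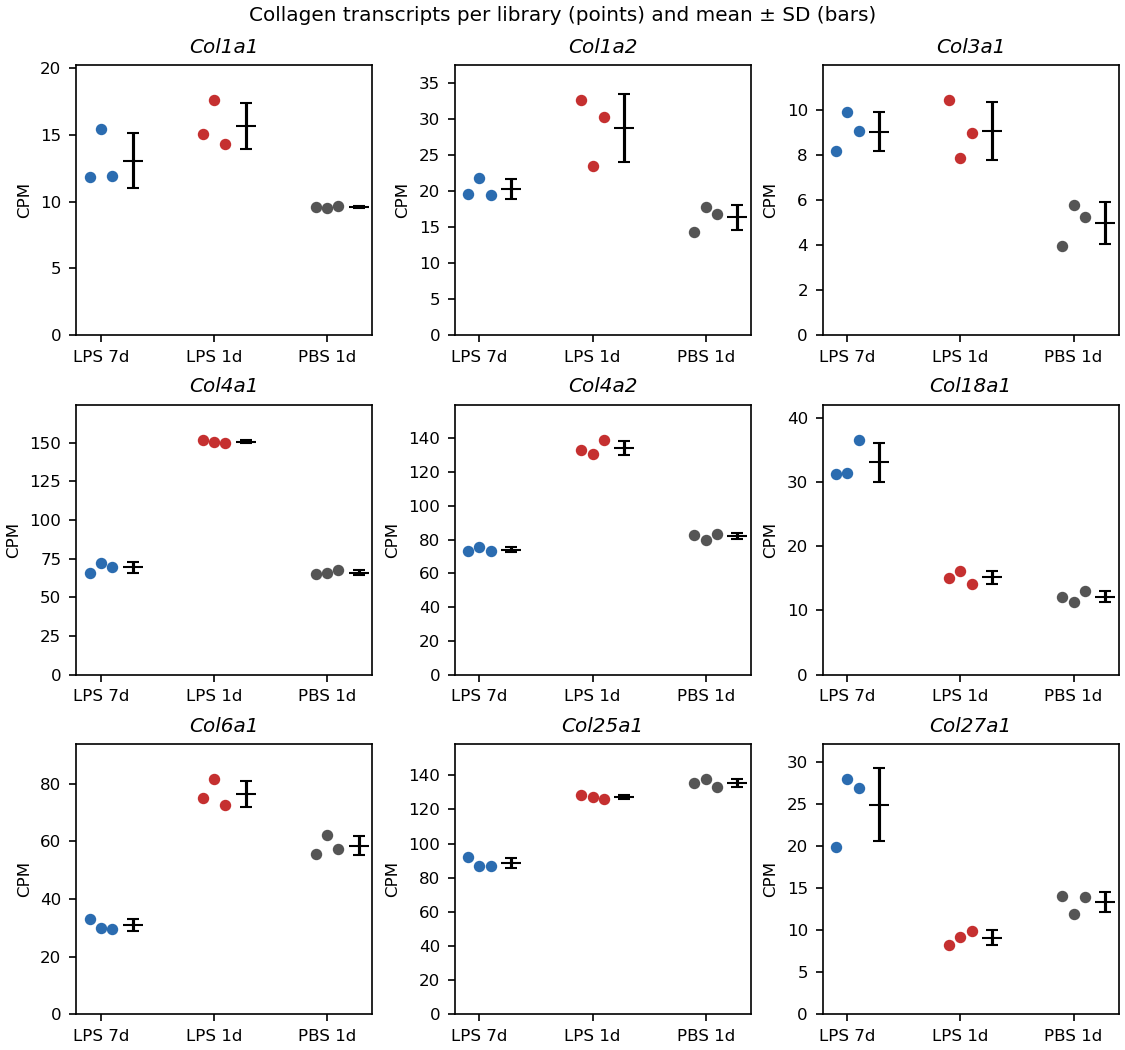
CPM of 9 collagen genes, 1 panel each, in every library (points) with the group mean ± SD beside them, LPS 7d at the left, LPS 1d in the middle and PBS 1d at the right. Col4a1 and Col4a2 are highest in LPS 1d, Col18a1 and Col27a1 in LPS 7d, and Col6a1 and Col25a1 are lowest in LPS 7d.

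Col27a1, a fibrillar collagen of cartilage and other tissues with a short triple helix, moved in opposite directions at the 2 times after LPS. Col27a1 had 19.9, 27.9 and 26.9 CPM in LPS 7d, 8.25, 9.16 and 9.92 CPM in LPS 1d, and 14.0, 11.96 and 14.0 CPM in PBS 1d. The LPS 7d libraries lay above, and the LPS 1d libraries below, every PBS 1d library. The log2 fold change was 0.90 ± 0.11 (adjusted p = 7.33e-10) in LPS 7d against PBS 1d, -0.54 ± 0.12 (adjusted p = 0.000274) in LPS 1d against PBS 1d and 1.44 ± 0.11 (adjusted p = 1.12e-15) in LPS 7d against LPS 1d, all by edgeR.

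Col11a1 and Col11a2 are chains of type XI collagen, which nucleates thin fibrils with type II. Col11a2 had 27.2, 31.3 and 29.2 CPM in LPS 7d, 18.1, 21.5 and 21.0 CPM in LPS 1d, and 31.0, 29.5 and 31.6 CPM in PBS 1d. Col11a2 was lower in all LPS 1d libraries than in any other, at a log2 fold change of -0.60 ± 0.08 (adjusted p = 5.25e-08) against PBS 1d, and it was higher in LPS 7d than in LPS 1d, at 0.53 ± 0.08 (adjusted p = 5.02e-07) by edgeR. Col11a1 had 17.0, 15.2 and 15.5 CPM in LPS 7d, 20.9, 19.4 and 20.6 CPM in LPS 1d, and 21.7, 23.2 and 21.9 CPM in PBS 1d. Col11a1 instead was lowest in the LPS 7d libraries, at -0.49 ± 0.09 (adjusted p = 1.61e-05) against PBS 1d and -0.35 ± 0.09 (adjusted p = 0.00101) against LPS 1d. Col24a1 had 5.21, 5.00 and 4.08 CPM in LPS 7d, 7.94, 7.23 and 8.58 CPM in LPS 1d, and 6.58, 6.58 and 7.57 CPM in PBS 1d. Col24a1, a minor fibrillar collagen, was likewise lowest in LPS 7d and fell, with log2 fold changes of -0.53 ± 0.16 (adjusted p = 0.00571) against PBS 1d and -0.73 ± 0.16 (adjusted p = 7.21e-05) against LPS 1d in edgeR's test.

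Col5a1, a type V chain that limits fibril width, and Col2a1, the main fibril chain of cartilage, were the other fibrillar members that passed. Col5a1 had 13.8, 10.9 and 10.9 CPM in LPS 7d, 9.10, 9.28 and 9.07 CPM in LPS 1d, and 9.05, 9.37 and 9.47 CPM in PBS 1d. All LPS 7d libraries exceeded the rest, with a log2 fold change of 0.35 ± 0.12 (adjusted p = 0.0202) against PBS 1d and 0.37 ± 0.12 (adjusted p = 0.00882) against LPS 1d by edgeR. The first call was lost without PBS 1d replicate 1 or LPS 7d replicate 1 (adjusted p up to 0.210) and the second without LPS 7d replicate 1 (adjusted p = 0.117), the highest library. Col2a1 had 3.74, 2.78 and 4.91 CPM in LPS 7d, 3.47, 2.93 and 1.89 CPM in LPS 1d, and 2.17, 2.21 and 1.91 CPM in PBS 1d. Col2a1 rose in LPS 7d against PBS 1d, by 0.86 ± 0.25 (adjusted p = 0.00446) in edgeR's test, but not without LPS 7d replicate 3, at an adjusted p of 0.0753.

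Type VI collagen forms beaded filaments at the border of basement membrane and interstitial matrix, and all 6 of its genes fell in LPS 7d against PBS 1d, with a median log2 fold change of -0.77, where 18.9% of all genes fell. Col6a1 had 33.2, 30.05 and 29.6 CPM in LPS 7d, 75.2, 81.6 and 72.6 CPM in LPS 1d, and 55.8, 62.1 and 57.5 CPM in PBS 1d. Col6a2 had 14.6, 16.8 and 16.7 CPM in LPS 7d, 27.4, 27.0 and 27.2 CPM in LPS 1d, and 26.9, 21.5 and 25.2 CPM in PBS 1d. Col6a3 had 6.19, 8.21 and 7.87 CPM in LPS 7d, 14.1, 13.6 and 13.1 CPM in LPS 1d, and 12.3, 8.48 and 11.4 CPM in PBS 1d. These are the chains of the common type VI molecule, and in each of the 3 genes all LPS 7d libraries lay below all PBS 1d and LPS 1d libraries. The log2 fold change in LPS 7d against PBS 1d was -0.92 ± 0.07 (adjusted p = 5.17e-17) for Col6a1, -0.61 ± 0.09 (adjusted p = 2.1e-07) for Col6a2 and -0.53 ± 0.13 (adjusted p = 0.00125) for Col6a3 by edgeR. Against LPS 1d it was -1.30 ± 0.06 (adjusted p = 1.73e-23) for Col6a1, -0.76 ± 0.09 (adjusted p = 4.58e-10) for Col6a2 and -0.87 ± 0.13 (adjusted p = 1.42e-07) for Col6a3.

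Col6a4, Col6a5 and Col6a6 encode chains that can take the place of alpha3 and lie together within 408975 bases of chromosome 9. Col6a4 had 0.490, 0.494 and 0.355 CPM in LPS 7d, 1.70, 1.68 and 1.58 CPM in LPS 1d, and 1.35, 1.14 and 1.57 CPM in PBS 1d. Col6a5 had 2.33, 2.22 and 1.60 CPM in LPS 7d, 3.31, 4.30 and 3.77 CPM in LPS 1d, and 4.64, 4.37 and 4.23 CPM in PBS 1d. Col6a6 had 3.25, 3.52 and 2.90 CPM in LPS 7d, 4.78, 3.18 and 4.75 CPM in LPS 1d, and 4.47, 4.81 and 5.38 CPM in PBS 1d. Col6a4 and Col6a5 were lower in all LPS 7d libraries than in any other, while Col6a6 overlapped with LPS 1d. In LPS 7d against PBS 1d the log2 fold change was -1.58 ± 0.41 (adjusted p = 0.00146) for Col6a4, -1.11 ± 0.22 (adjusted p = 4.65e-05) for Col6a5 and -0.60 ± 0.20 (adjusted p = 0.0131) for Col6a6 by edgeR. The Col6a6 call was lost without PBS 1d replicate 3 or LPS 7d replicate 3, at an adjusted p of at most 0.0685. Against LPS 1d, Col6a4 fell by 1.87 ± 0.39 (adjusted p = 6.67e-05) and Col6a5 by 0.90 ± 0.22 (adjusted p = 0.000635). With the common chains these made 5 of the 6 genes, where 29.1% of all genes fell.

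At 1 day, in LPS 1d against PBS 1d, only Col6a1 and Col6a3 passed among the 6 type VI genes, where 49.1% of all genes passed. Col6a1 rose with no overlap, at a log2 fold change of 0.39 ± 0.06 (adjusted p = 4.62e-07) by edgeR. Col6a3 was at 0.34 ± 0.13 (adjusted p = 0.0213), and that call was lost without PBS 1d replicate 2, LPS 1d replicate 1 or LPS 1d replicate 2, where the adjusted p reached 0.231. Col6a1, Col6a2 and Col18a1 lie within 570787 bases of chromosome 10, and in LPS 7d against PBS 1d the first pair fell while Col18a1 rose. Choroid plexus markers summed to 731 to 756 CPM in LPS 7d, 1053 to 1081 CPM in LPS 1d and 994 to 1098 CPM in PBS 1d. Their sums were thus lower in LPS 7d, while those of LPS 1d and PBS 1d overlapped. Of these 9 markers 8 fell and 0 rose in LPS 7d against PBS 1d, where 18.9% of all genes fell and 16.8% rose. Their part in the type VI result was not tested.

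Transmembrane collagens are anchored in the cell surface and can be shed. Col25a1 had 92.2, 86.6 and 87.1 CPM in LPS 7d, 129, 127 and 126 CPM in LPS 1d, and 135, 138 and 133 CPM in PBS 1d. Col25a1, the neuronal member that was first found in amyloid plaques, was lower in all LPS 7d libraries than in any other, at a log2 fold change of -0.61 ± 0.05 (adjusted p = 3.61e-16) against PBS 1d and -0.52 ± 0.05 (adjusted p = 5.89e-14) against LPS 1d by edgeR. It did not pass in LPS 1d against PBS 1d (log2 fold change -0.09, 95% interval -0.18 to 0.00, adjusted p = 0.102). The 5 neuron markers summed to 4868 to 5047 CPM in LPS 7d, 5521 to 5649 CPM in LPS 1d and 5171 to 5372 CPM in PBS 1d. In LPS 7d against PBS 1d 2 of the 5 rose and 2 fell, where 16.8% of all genes rose and 18.9% fell. The part of these markers in the Col25a1 result was not tested. Col23a1 had 15.2, 15.9 and 14.1 CPM in LPS 7d, 24.9, 27.2 and 27.1 CPM in LPS 1d, and 19.7, 19.9 and 20.2 CPM in PBS 1d. The 3 groups of Col23a1 did not overlap, with a log2 fold change of 0.41 ± 0.09 (adjusted p = 0.0001) in LPS 1d against PBS 1d, -0.41 ± 0.09 (adjusted p = 0.00031) in LPS 7d against PBS 1d and -0.81 ± 0.09 (adjusted p = 4e-11) in LPS 7d against LPS 1d. Col17a1 had 1.90, 1.91 and 1.60 CPM in LPS 7d, 1.39, 0.810 and 0.852 CPM in LPS 1d, and 0.764, 0.633 and 0.409 CPM in PBS 1d. Col17a1, a hemidesmosome collagen, was low throughout and rose in LPS 7d against PBS 1d, by 1.55 ± 0.37 (adjusted p = 0.000708) in edgeR's test. Its rise over LPS 1d, 0.85 ± 0.34 (adjusted p = 0.0321), was lost with DESeq2 and without LPS 1d replicate 2 or 3 or LPS 7d replicate 1 or 2, at an adjusted p of at most 0.122.

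Short-chain, fibril-associated and remaining collagens gave the other calls. Col8a1 had 3.003, 3.70 and 3.14 CPM in LPS 7d, 7.40, 6.85 and 6.45 CPM in LPS 1d, and 3.58, 5.82 and 5.45 CPM in PBS 1d. Col8a1, a short-chain collagen of vessel walls, was highest in LPS 1d, at a log2 fold change of 0.48 ± 0.17 (adjusted p = 0.0184) against PBS 1d by edgeR, and in LPS 7d it was at -1.07 ± 0.18 (adjusted p = 2.08e-06) against LPS 1d and -0.59 ± 0.19 (adjusted p = 0.0128) against PBS 1d. The first call was lost without PBS 1d replicate 1 or LPS 1d replicate 1 (adjusted p up to 0.206) and the last without PBS 1d replicate 2 or 3 (up to 0.105). Col19a1 had 13.6, 11.3 and 13.7 CPM in LPS 7d, 19.0, 18.0 and 18.5 CPM in LPS 1d, and 14.5, 14.3 and 17.0 CPM in PBS 1d. Col19a1, a fibril-associated collagen made by interneurons, fell in LPS 7d against LPS 1d, by 0.52 ± 0.10 (adjusted p = 2.36e-05) on the log2 scale. Its rise in LPS 1d over PBS 1d, 0.28 ± 0.10 (adjusted p = 0.0194), was lost without PBS 1d replicate 1 or 2 or LPS 1d replicate 1, at up to 0.0878.

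Col9a2, Col7a1 and Col26a1 complete the members with values in every library. Col9a2 had 11.1, 10.7 and 11.4 CPM in LPS 7d, 8.79, 9.22 and 7.36 CPM in LPS 1d, and 9.93, 7.47 and 9.61 CPM in PBS 1d. Col9a2, a type IX chain that coats cartilage fibrils, rose in LPS 7d against LPS 1d, by 0.39 ± 0.13 (adjusted p = 0.00918) in edgeR's test, but not without LPS 1d replicate 3, at an adjusted p of 0.0822. Col7a1 had 3.43, 5.61 and 5.03 CPM in LPS 7d, 2.39, 4.24 and 3.59 CPM in LPS 1d, and 2.29, 1.46 and 2.79 CPM in PBS 1d. Col7a1, the anchoring fibril collagen, rose in LPS 7d against PBS 1d, by 1.11 ± 0.24 (adjusted p = 0.000155), with no overlap. Its rise in LPS 1d, 0.67 ± 0.25 (adjusted p = 0.0245), came with overlapping libraries and was lost without PBS 1d replicate 2 or LPS 1d replicate 2 or 3, at up to 0.172. Col26a1 had 6.56, 5.43 and 5.50 CPM in LPS 7d, 5.16, 4.24 and 6.63 CPM in LPS 1d, and 9.75, 10.3 and 10.9 CPM in PBS 1d. Col26a1, a little studied collagen found in testis and ovary, was lower in every LPS library than in any PBS 1d library, at -0.94 ± 0.15 (adjusted p = 9.65e-07) in LPS 1d and -0.82 ± 0.15 (adjusted p = 9.46e-06) in LPS 7d against PBS 1d.

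Col9a1, a further type IX chain with a mean under 1 CPM, passed in LPS 7d against LPS 1d alone, at 1.03 ± 0.44 (adjusted p = 0.0402) by edgeR, and that call was lost with no filter, with DESeq2 and without LPS 1d replicate 1 or 2 or LPS 7d replicate 3, at up to 0.346. The 13 tested members that passed in none of the 3 comparisons were Col12a1, Col13a1, Col14a1, Col16a1, Col20a1, Col22a1, Col28a1, Col4a3, Col4a6, Col5a2, Col5a3, Col8a2 and Col9a3. In LPS 1d against PBS 1d, the log2 fold changes of the 27 members that did not pass lay between -0.50 and 0.70, with an SE of 0.05 to 0.47. Col12a1, a fibril-associated collagen of dense connective tissue, differed there by 0.22, 95% interval 0.02 to 0.43 (adjusted p = 0.0677 by edgeR), an unadjusted interval beside a p that missed the threshold. In LPS 7d the log2 fold changes of those that did not pass lay between -0.51 and 0.53 against PBS 1d (20 members) and between -0.63 and 0.48 against LPS 1d (19 members).

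Type I, type IV and type VI molecules hold their chains in fixed proportions, so the ratios of chain transcripts were compared per length. Col4a1 over Col4a2 was 0.830 ± 0.0274 in LPS 7d, 0.996 ± 0.0363 in LPS 1d and 0.714 ± 0.0181 in PBS 1d (SD, n = 3 each), with no overlap between any groups. On the log2 scale the difference was 0.48 in LPS 1d against PBS 1d, 0.22 in LPS 7d against PBS 1d and -0.26 in LPS 7d against LPS 1d. Each had p = 0.1 in the two-sided exact permutation test, the smallest that 3 against 3 libraries allow, and an adjusted p of 0.225 over the 9 ratio tests. Col1a1 over Col1a2 was 1.21 ± 0.108 in LPS 7d, 1.06 ± 0.305 in LPS 1d and 1.12 ± 0.126 in PBS 1d, differences within the spread of the libraries (exact permutation p = 0.4 to 0.6). Col6a2 over Col6a1 was 0.274 ± 0.0373 in LPS 7d, 0.188 ± 0.0119 in LPS 1d and 0.222 ± 0.0365 in PBS 1d. Only its LPS 7d and LPS 1d libraries did not overlap, with a log2 difference of 0.54 (exact permutation p = 0.1).

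**Figure D4:**
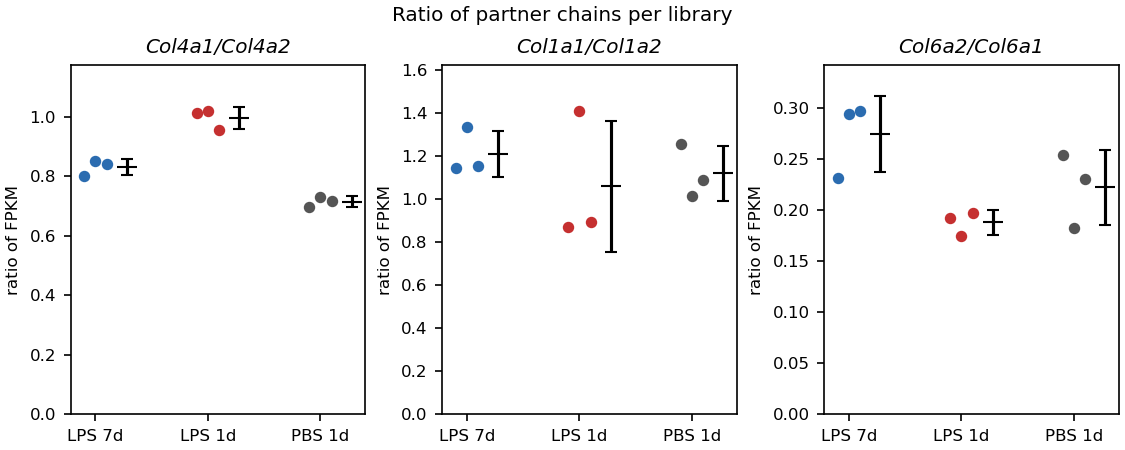
FPKM ratios of chain pairs in each library, with group means ± SD, LPS 7d at the left and PBS 1d at the right. Col4a1 over Col4a2 separates the 3 groups, at 0.830, 0.996 and 0.714 from left to right, while Col1a1 over Col1a2 overlaps between them.

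Genes that make, cut, bind or accompany collagen were described by 6 lists, with changes given as log2 fold changes ± SE. Enzymes of collagen synthesis and their helpers had 7 rises and 4 falls among 30 in LPS 1d against PBS 1d, where 24.9% of all genes rose and 24.2% fell, so that its rises were near the share of all genes. Lox, the copper oxidase that crosslinks collagen, averaged 1.74 ± 0.243 CPM in LPS 7d, 12.5 ± 0.809 CPM in LPS 1d and 0.653 ± 0.428 CPM in PBS 1d. Its log2 fold change was 4.21 ± 0.23 (adjusted p = 6.73e-21) in LPS 1d against PBS 1d and -2.85 ± 0.19 (adjusted p = 5.53e-18) in LPS 7d against LPS 1d by edgeR. The prolyl hydroxylase gene P4ha1 fell by 0.70 ± 0.06 (adjusted p = 2.69e-13) and the galactosyltransferase gene Colgalt2 by 0.72 ± 0.12 (adjusted p = 1.27e-06) in LPS 1d against PBS 1d. In LPS 7d against PBS 1d the list had 10 rises and 5 falls (against 16.8% and 18.9% of all genes), with the procollagen C-proteinase gene Bmp1 at 1.21 ± 0.05 (adjusted p = 2.42e-25), the lysyl hydroxylase gene Plod2 at 0.84 ± 0.13 (adjusted p = 6.49e-07) and the procollagen N-proteinase gene Adamts3 at -0.90 ± 0.07 (adjusted p = 3.93e-15). Against LPS 1d it had 11 rises and 9 falls in LPS 7d (against 27.5% and 29.1% of all genes).

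Partners of type IV in the basement membrane had 6 rises and 1 fall among 16 in LPS 1d against PBS 1d, where 24.9% of all genes rose and 24.2% fell. They had 2 rises and 8 falls in LPS 7d against LPS 1d, where 27.5% of all genes rose and 29.1% fell. Nid1, which links the laminin and type IV networks, averaged 21.5 ± 1.45 CPM in LPS 7d, 34.6 ± 0.774 CPM in LPS 1d and 13.8 ± 1.28 CPM in PBS 1d. On the log2 scale it rose by 1.32 ± 0.09 (adjusted p = 8.45e-18) in LPS 1d and by 0.63 ± 0.09 (adjusted p = 1.44e-07) in LPS 7d against PBS 1d by edgeR. The laminin gene Lamc1 averaged 54.5 ± 3.47 CPM in LPS 7d, 90.1 ± 4.56 CPM in LPS 1d and 54.3 ± 6.15 CPM in PBS 1d, at 0.73 ± 0.06 (adjusted p = 4.65e-14) in LPS 1d against PBS 1d and -0.73 ± 0.06 (adjusted p = 1.73e-14) in LPS 7d against LPS 1d. In LPS 7d against PBS 1d the list had 3 rises and 2 falls, near the 16.8% and 18.9% of all genes, among them the collagen-binding Sparc at 0.29 ± 0.03 (adjusted p = 3.57e-10) and the heparan sulphate proteoglycan gene Agrn at -0.29 ± 0.04 (adjusted p = 2.75e-08).

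Proteoglycans and glycoproteins of the fibril surface had 6 rises and 1 fall among 14 in LPS 1d against PBS 1d, with a median log2 fold change of 0.40 against -0.01 for all genes, of which 24.9% rose and 24.2% fell. The small proteoglycan genes Dcn and Bgn were at 0.86 ± 0.07 (adjusted p = 1.16e-14) and 0.62 ± 0.09 (adjusted p = 9.57e-08), and Fn1, the fibronectin gene, at 0.65 ± 0.06 (adjusted p = 3.84e-14) by edgeR. In LPS 7d the list had 5 rises and 3 falls against PBS 1d (against 16.8% and 18.9% of all genes) and 1 rise and 8 falls against LPS 1d (against 27.5% and 29.1% of all genes). Podn, a gene of a small leucine-rich proteoglycan, fell in both, with log2 fold changes of -1.56 ± 0.16 (adjusted p = 1.42e-11) against PBS 1d and -1.65 ± 0.16 (adjusted p = 1.51e-12) against LPS 1d. Of these 14 genes, 4 (Dcn, Fmod, Lum and Ogn) are also among the fibroblast markers.

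Turnover genes had 5 rises and 1 fall among 12 in LPS 1d against PBS 1d, 2 rises and 3 falls in LPS 7d against PBS 1d and 3 rises and 6 falls in LPS 7d against LPS 1d. Of all genes 24.9% rose and 24.2% fell in the first comparison, 16.8% and 18.9% in the second, which the list's counts there lie near, and 27.5% and 29.1% in the third. In LPS 1d against PBS 1d the metalloproteinase inhibitor gene Timp1 rose by 1.61 ± 0.30 (adjusted p = 1.11e-05) and the membrane metalloproteinase gene Mmp15 fell by 0.59 ± 0.06 (adjusted p = 3.55e-12) in edgeR's test. Timp4 was at 0.94 ± 0.07 (adjusted p = 1.17e-16) in LPS 7d against PBS 1d, while Timp2 and Timp3 fell by 0.31 ± 0.03 (adjusted p = 4.92e-11) and 0.41 ± 0.05 (adjusted p = 7.28e-10). Collagen receptors had 4 rises and 1 fall among 9 in LPS 1d against PBS 1d, 3 rises and 0 falls in LPS 7d against PBS 1d and 3 rises and 2 falls in LPS 7d against LPS 1d, beside the same shares of all genes. The receptor tyrosine kinase gene Ddr1 was at -0.37 ± 0.05 (adjusted p = 1.12e-08) in LPS 1d against PBS 1d and 0.33 ± 0.05 (adjusted p = 7.21e-08) in LPS 7d against LPS 1d, and the integrin gene Itga1 at 0.37 ± 0.10 (adjusted p = 0.00204) in LPS 7d against PBS 1d.

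The transforming growth factor beta axis, a main inducer of type I collagen in fibroblasts, had 5 rises and 1 fall among 12 in LPS 1d against PBS 1d, where 24.9% of all genes rose and 24.2% fell. The receptor gene Tgfbr2 and the matricellular target Ccn2 rose by 0.60 ± 0.08 (adjusted p = 3.59e-09) and 0.72 ± 0.12 (adjusted p = 1.04e-06), and the inhibitory Smad7 fell by 0.68 ± 0.08 (adjusted p = 9.92e-10) in edgeR's test. In LPS 7d the list had 1 rise and 4 falls against PBS 1d (against 16.8% and 18.9% of all genes) and 2 rises and 7 falls against LPS 1d (against 27.5% and 29.1% of all genes). Ccn1, a matricellular gene like Ccn2, was at -1.03 ± 0.12 (adjusted p = 3.75e-10) and Ccn2 at -0.90 ± 0.12 (adjusted p = 4.82e-09) against LPS 1d, and against PBS 1d Ccn1 was at -0.67 ± 0.13 (adjusted p = 1.61e-05).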

How the data were processed

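The authors deposited whole read counts per gene, FPKM and other columns (gene name, position, strand and length) for 9 libraries, made per the labels from Trizol RNA with a TruSeq kit. The submitters' processing notes name TopHat2, HISAT2, HTSeq and the build GRCm39. The sources used here give no versions, roles or strand setting for them. The deposited FPKM matched values recomputed from the deposited counts and lengths (largest relative difference 1.58e-07).

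Of 21899 genes, 18383 had a count and 14837 passed filterByExpr. Counts were fitted with edgeR 4.0.16 (R 4.3.3) quasi-likelihood on all 9 libraries, with 1 mean per group and TMM factors of 0.983 to 1.03. Tests were two-sided, and a gene rose or fell where its Benjamini-Hochberg adjusted p over the genes tested was under 0.05. CPM used TMM-scaled library totals, and the SE is that of the log2 fold change. The common coefficient of biological variation was 4.15%, with 6 residual and 43.4 prior degrees of freedom. The fitting code was tested on simulated data. Chain ratios were tested by exact permutation (scipy 1.17.1). Totals of 13211422 to 17210526 counts limit the precision for low genes, and replicates differed beyond counting noise (a chi-square of 2.02 to 3.71 per degree of freedom).

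Collagens past the threshold in at least 1 comparison with a mean of at least 1 CPM (29 genes) are given in every library, with up to 4 members of each pathway list by p-value and up to 2 against its direction as candidates for naming. The members and all lists were chosen with earlier results of these data known. Alternatives were DESeq2 (1.42.0), other scalings, no filter, a fold of 1.5, only the groups compared, a replicate block, type IV alone and leaving out each library.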

Additional observations from a re-analysis of the deposited data

How the results depend on the processing

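The depth limits calls of collagens under a few CPM, and 3 libraries per group limit all of them. Counts of collagens that rose and fell were 12 and 4 (LPS 1d against PBS 1d), 10 and 13 (LPS 7d against PBS 1d) and 8 and 16 (LPS 7d against LPS 1d). Tested against a fold of 1.5 they were 2 and 0, 3 and 1, and 2 and 7, in the same order, since that test demands a larger change. Leaving out 1 library gave 8 to 13 rises and 3 to 5 falls, 7 to 10 and 10 to 14, and 6 to 8 and 15 to 16.

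Median log2 fold changes without 1 library ranged, for LPS 1d against PBS 1d, from 0.13 to 0.27 (fibrillar), 0.12 to 0.22 (basement membrane) and 0.13 to 0.23 (other). For LPS 7d against PBS 1d the ranges were 0.29 to 0.36, -0.06 to -0.01 and -0.28 to -0.094, and for LPS 7d against LPS 1d 0.00067 to 0.10, 0.062 to 0.15 and -0.44 to -0.19. Type IV alone gave 0.25 (LPS 1d against PBS 1d) and -0.36 (LPS 7d against LPS 1d) in place of the basement membrane medians. Library totals without TMM gave fibrillar medians of 0.35 (LPS 7d against PBS 1d) and 0.058 (LPS 7d against LPS 1d) and a basement membrane median of 0.18 (LPS 7d against LPS 1d). Upper-quartile factors gave a fibrillar median of 0.025 in LPS 7d against LPS 1d. The cause of these shifts was not tested.

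Same-numbered libraries did not deviate together (r of -0.05 to 0.02 over 9 pairs, against -0.05 to 0.06 for 18 pairs with different numbers). No pairing by number was thus detected, but a weak one, or one in few genes, could be missed by this check. With the replicate number as a block the counts were again 12 and 4, 10 and 13, and 8 and 16, and no call of a named collagen changed. Of 87 results on named collagens, 83 kept their side of the threshold with DESeq2 and 87 with DESeq2 size factors in edgeR. None of those that passed in the main fit passed in the opposite direction in any setting run. The sign of results near 0 that did not pass is not covered by this.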

Other observations

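Per length, the collagen with the highest level was Col4a2 in LPS 7d, at 11.4 ± 0.201 FPKM (SD, n = 3), apart from Col4a1 at 9.50 ± 0.408 FPKM. In LPS 1d Col4a2 at 19.9 ± 0.621 FPKM and Col4a1 at 19.8 ± 0.142 FPKM overlapped, above Col6a1 at 17.2 ± 1.04 FPKM. In PBS 1d Col6a1 led, at 13.3 ± 0.791 FPKM.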
